A study of Homo sapiens with 18 samples.

Results

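The genes described here encode the factors with which human cells begin to translate an mRNA, measured by RNA sequencing in MCF10A cells after knockout of CBFB or RUNX1. They were chosen by name alone, as every gene whose symbol begins with EIF and a digit from 1 to 6, which takes in the kinases of eIF2 and the proteins that bind eIF4E. The rule found 55 of the 19401 genes listed in any of the 3 tables of knockout against wild type (WT), of which 53 encode proteins and 2, EIF1B-AS1 and EIF3J-AS1, are antisense or divergent transcripts that are kept apart below. Of the protein-coding members, the comparison for CBFB KO lists 52, that of clone RUNX1 KO1 lists 53 and that of clone RUNX1 KO2 lists 51.

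MCF10A is a human breast epithelial cell line that is immortal but not tumorigenic. All cells were grown without a drug in medium with horse serum, insulin, EGF, hydrocortisone and cholera toxin, and the knockouts were made with CRISPR-Cas9. CBFB KO has 3 samples under 1 label, which gives no clone number, and has its own 3 WT samples. RUNX1 KO1 and RUNX1 KO2 are separate clones with 4 samples each, and both were compared with the same 4 WT samples, so their results are given side by side and not tested against each other. A clone's own history cannot be told apart from the loss of the gene.

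The authors' deposited tables hold, for each gene, the mean normalized read count over both groups, a log2 fold change shrunk toward 0, its standard error (SE) and a p-value adjusted over all genes. They hold no value per sample, so the spread between samples enters only through the SE. The levels of knockout and WT given below were worked out from the mean and the fold change, and a percentage of WT is the fold change on a linear scale with its 95% interval. A gene was called higher or lower where the adjusted p-value was under 0.05. CBFB mRNA fell by 4.88 on the log2 scale in CBFB KO. RUNX1 mRNA was higher in both clones labelled RUNX1 KO, by 0.54 (KO1) and 0.46 (KO2), so its level does not check those labels, and the directions below are those of the clones so labelled. The study's methods state that colonies underwent PCR genotyping and western blots, which are not analysed here. Marker genes of epithelium were present, with a mean of 87894 normalized counts for KRT5 and 3351 for CDH1 in the CBFB table, although KRT14 was not listed for KO2. Of the 6 epithelial markers (KRT5, KRT14, KRT17, TP63, EGFR and CDH1), several moved with the knockouts. KRT14 was higher by 2.97 (CBFB KO) and 2.95 (KO1) on the log2 scale, TP63 by 0.76 and 1.08, and KRT17 by 0.57, 0.69 and 1.27 (KO2). CDH1 was higher in KO1 by 0.51, KRT5 fell by 0.27 (CBFB KO) and 0.24 (KO1), and EGFR was not called. PTPRC of blood cells and PECAM1 of endothelium had means of 0.463 and 0.870 in the CBFB table. The fibroblast collagen gene COL1A1 had a mean of 284 and was higher in each knockout, by 1.40 (CBFB KO), 1.75 (KO1) and 1.36 (KO2) on the log2 scale. The part of these markers in the results below was not tested.

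Initiation starts when eIF2 brings the initiator tRNA to the small ribosomal subunit, which eIF3, a complex of many subunits, and the small factors eIF1 and eIF1A prepare for the mRNA. The cap of the mRNA is bound by eIF4E, which sits on the scaffold eIF4G beside the helicase eIF4A, and eIF4B and eIF4H raise the activity of that helicase. eIF2B recharges eIF2 with GTP, 4 kinases block this by phosphorylating eIF2, and the 4E-binding proteins (the EIF4EBP genes) hold eIF4E away from eIF4G. The study described CBFB as a partner of eIF4B in translation, which is why EIF4B is given in every comparison.

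Many mRNAs of the translation machinery begin with a cytosine followed by an unbroken run of pyrimidines, the 5′ terminal oligopyrimidine tract through which growth signals control their translation. The RefSeq starts of the members were searched for a C followed by at least 4 more C or T bases, since this feature groups members by a known mode of control that the name rule did not use. Of the 44 protein-coding members with a RefSeq promoter entry, 9 had such a start (20.5%), against 7.65% of the 8743 expressed genes with an entry, expressed meaning a mean of 100 normalized counts or more in the KO1 table. The starts of 6 of them that recur below are shown on the transcribed strand, from 10 bases before the start, with the pyrimidine tract in capitals (RefSeq, GRCh38.p14).
EIF4B, chr12:53006446-53006475, plus strand: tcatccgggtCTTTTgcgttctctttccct
EIF4A2, chr3:186783567-186783596, plus strand: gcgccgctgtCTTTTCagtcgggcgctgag
EIF3F, chr11:7987327-7987356, plus strand: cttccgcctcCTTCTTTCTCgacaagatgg
EIF3K, chr19:38619178-38619207, plus strand: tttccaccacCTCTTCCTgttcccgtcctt
EIF3M, chr11:32583821-32583850, plus strand: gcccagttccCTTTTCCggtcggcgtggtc
EIF2A, chr3:150546777-150546806, plus strand: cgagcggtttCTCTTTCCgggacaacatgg
The tract of EIF4B had 5 pyrimidines, the shortest that was counted, and that of EIF3F had 10. The others with such a start were EIF2D, EIF2S3 and EIF3D.

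The letters TGTGGT or their reverse complement ACCACA, the core that RUNX factors bind, were found in the 250 bases before a start of 2 of the 44 members (4.55%), against 10.5% of those expressed genes. The 2 were EIF4A2 and EIF3C, shown here as 30 bases with the match in capitals (RefSeq, GRCh38.p14).
EIF4A2, chr3:186783403-186783432, plus strand: tatcgagaaattACCACAtttgggtttttc
EIF3C, chr16:28688498-28688527, plus strand: cgccggagggacACCACAggaggaaggggc
The match lay 162 bases before the start of EIF4A2 and 48 bases before that of EIF3C, and EIF4B had none in this window.

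Levels in WT cells differed widely between members. Per kilobase of transcript (the median length of the annotated protein-coding transcripts), the WT level in the CBFB experiment was highest for EIF5A, which helps ribosomes through difficult peptide bonds, at 18593 normalized counts per kb. EIF3CL and EIF3C, near-identical copies of an eIF3 subunit, followed at 10969.8 and 10762, EIF3E at 8628 and the scaffold EIF4G2 at 7359 normalized counts per kb. EIF4B stood at 4960 and EIF4H at 4661 normalized counts per kb, while the kinase EIF2AK3 stood at 72.8 and the cap-binding protein EIF4E3 at 37.3. By role, the median level per kb was 3156 for eIF3, 663 for eIF2B, 388 for the eIF2 kinases and 264 for the 4E-binding proteins. The WT of the RUNX1 experiment gave a similar order, with EIF5A at 22340, EIF3C at 10956 and EIF4E3 at 34.4 normalized counts per kb. Without values per sample, the spread of a level is not known, and neighbors in this order cannot be told apart. EIF4E1B, an eIF4E copy of germ cells, had means of 0.124 (KO1) and 0.326 (KO2), received no adjusted p-value and was not listed for CBFB KO.

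Few members changed in CBFB KO, and 27 of 52 were lower in the clone labelled RUNX1 KO1. In CBFB KO, 4 of 52 members were called, against 19.7% of all genes tested. The helicase EIF4A2, EIF4B and the start codon factor EIF1AX were lower, and the 4E-binding protein EIF4EBP1 was higher. In RUNX1 KO1, 30 of 52 members (57.7%) were called, against 39.5% of all genes, and 27 of them were lower (51.9%), where 19.9% of all genes were lower. These shares over all genes take in weakly expressed genes, with means down to 0.748 normalized counts in KO1, whereas all 52 members had means of at least 100. Among expressed genes, 52.1% were called lower in KO1 in the shortest decile of transcript length, 25.8% in the fifth and 9.42% in the longest. In RUNX1 KO2, 3 of 50 members were called, against 14.8% of all genes, and all 3 were lower: EIF4B, the GTPase activator EIF5 and EIF2A. With a trend on transcript length and GC content subtracted, described below, 17 members were lower in KO1 (15 with median transcript lengths) and 0 were called in KO2 (1 with median lengths). Higher calls covered 11.7% (CBFB KO), 19.7% (KO1) and 8.76% (KO2) of all genes, and lower calls covered 7.97% (CBFB KO) and 6.08% (KO2). The members had a median log2 fold change of 0.00 (CBFB KO), -0.20 (KO1) and -0.02 (KO2), beside medians of -0.01, 0.00 and 0.02 over all genes tested.

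All changes were small. No member reached a fold change of 2, which 2.98% (CBFB KO), 4.93% (KO1) and 5.48% (KO2) of all genes did, and EIF2AK3 in KO1 was the only called member past 1.5-fold. The 95% interval of the fold change lay within 2-fold in either direction for all 52 members tested in CBFB KO, all 52 in KO1 and 49 of 50 in KO2, the exception being the weakly expressed EIF4EBP3. It lay within 1.5-fold for 51, 47 and 28 members. The median SE of the members was 0.09 in CBFB KO and KO1 and 0.22 in KO2, so the low number of calls in KO2 came with wider intervals.

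**Figure D1:**
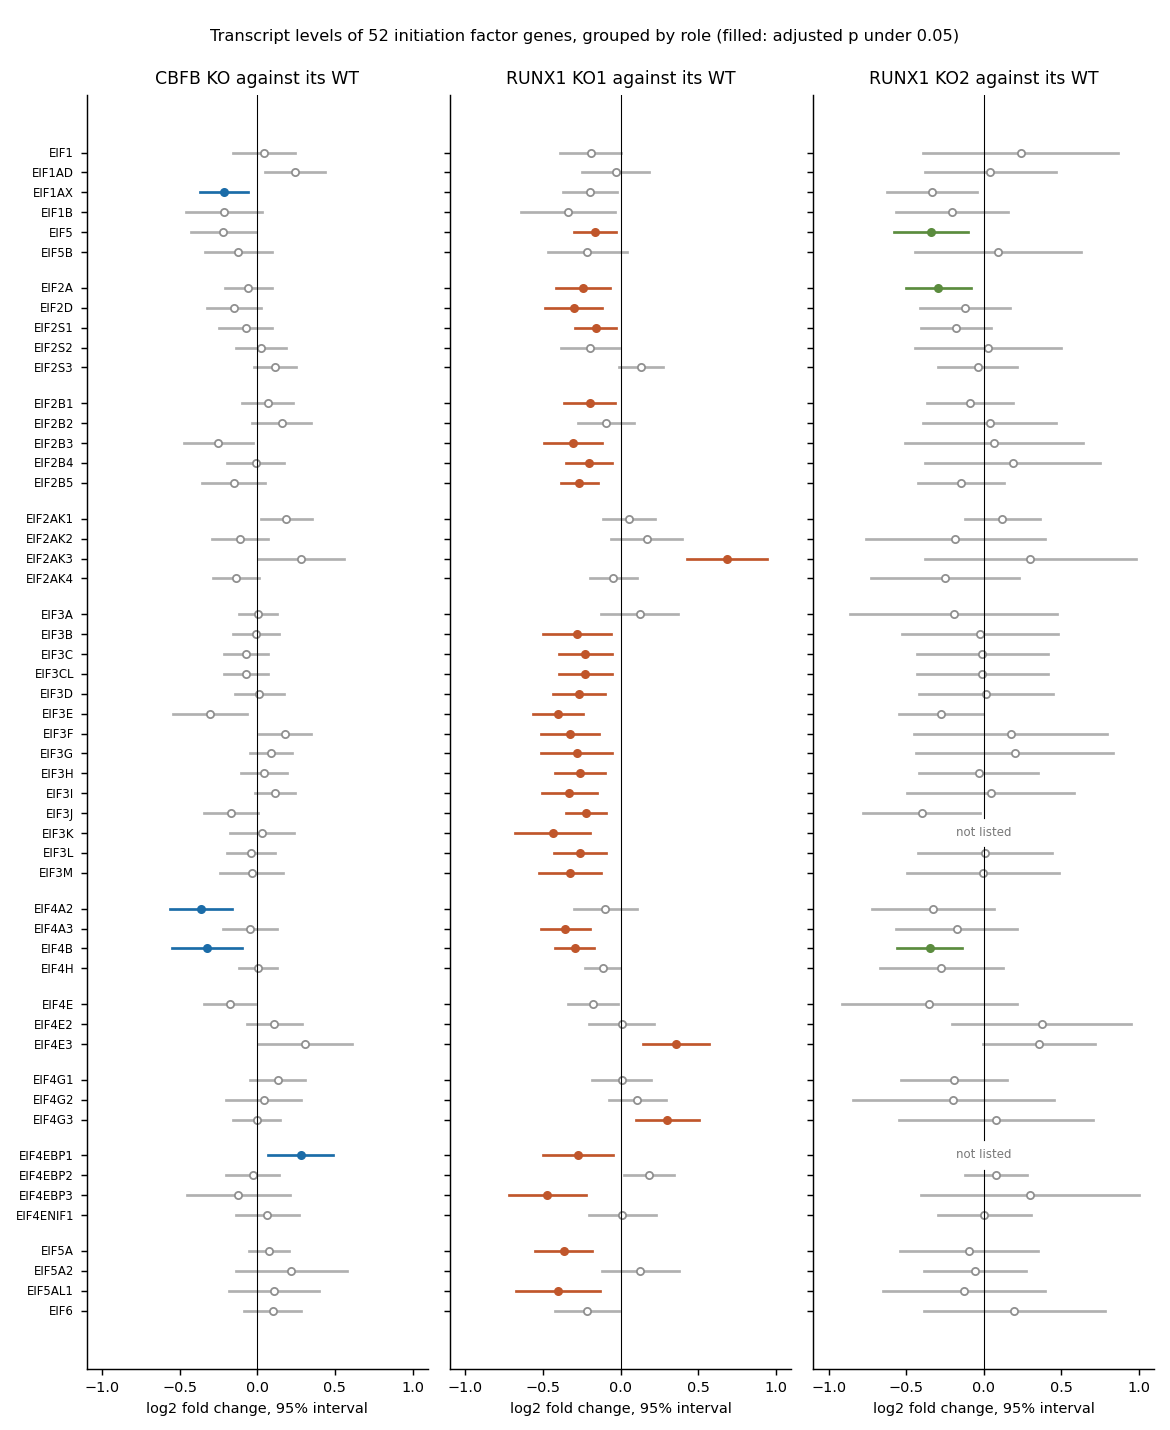
Log2 fold change of knockout against WT (x axis) with its 95% interval for the 52 protein-coding members with measurable reads, in blocks by role; filled points had an adjusted p-value under 0.05. In RUNX1 KO1 13 of the 14 eIF3 rows lie left of 0 and are filled, whereas none is filled in CBFB KO or RUNX1 KO2; EIF3K and EIF4EBP1 have no value for KO2.

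The helicases of the eIF4A family and their cofactors held the member that was lower in all 3 tables. EIF4B went from 9847 to 7855 normalized counts in CBFB KO, from 8419 to 6860 in KO1 and from 7935 to 6235 in KO2. These levels were 79.8% (68.3 to 93.2%), 81.5% (74.7 to 88.9%) and 78.6% (68.0 to 90.8%) of WT, with adjusted p-values of 0.0262, 3.11e-05 and 0.0108. EIF4B was the only member called in all 3 tables, and each interval lay below 100%. After subtraction of the length and GC trend described below, the adjusted p-value in KO2 was 0.0558 and the log2 fold change was -0.28, while the calls in CBFB KO and KO1 stayed past the threshold. RefSeq lists 9 pseudogenes of EIF4B, whose reads the counting may have shared. The 24 expressed genes nearest to EIF4B on its chromosome had a median log2 fold change of -0.13 (CBFB KO), -0.06 (KO1) and -0.04 (KO2), closer to 0 than EIF4B in each.

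EIF4A2 went from 4882 to 3796 normalized counts in CBFB KO, 77.8% of WT (67.6 to 89.4%, adjusted p = 0.00382), the member with the largest fall there. It stood at 93.5% (81.2 to 108%) of WT in KO1 and at 79.7% (60.7 to 105%) in KO2, neither past the threshold. EIF4A3, the eIF4A-like helicase of the exon junction complex, was 78.2% (70.1 to 87.1%) of WT in KO1 (adjusted p = 5.13e-05), 96.9% in CBFB KO and 88.6% in KO2. EIF4H, the smaller relative of EIF4B, was not called, at 100% (92.1 to 109%), 92.3% (85.2 to 99.8%) and 82.7% (62.8 to 109%) of WT. EIF4A1, the main helicase, is not analysed here under its own name. A row for the read-through gene SENP3-EIF4A1, whose exons include those of EIF4A1, reached 35829 normalized counts on average in the CBFB table, where SENP3 reached 2041. Its log2 fold changes were -0.07 (CBFB KO), -0.35 (KO1, adjusted p = 1.67e-04) and -0.09 (KO2), and the reads of EIF4A1 cannot be told apart in it.

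**Figure D2:**
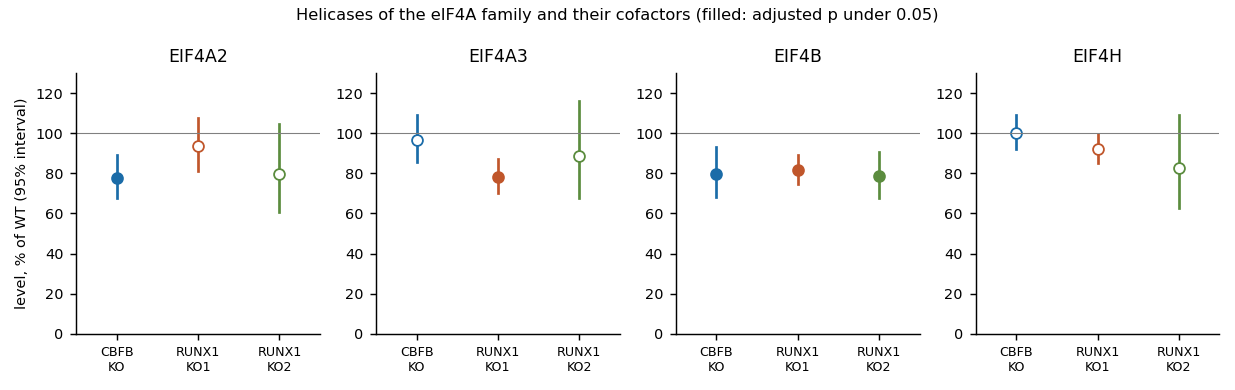
Level in each knockout as a percentage of its WT (y axis) with the 95% interval, for 2 helicases and 2 cofactors of the eIF4A group; filled points had an adjusted p-value under 0.05. EIF4B lies between 78.6% and 81.5% and is filled in all 3 comparisons, EIF4A2 is filled in CBFB KO only, EIF4A3 in RUNX1 KO1 only, and EIF4H in none.

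The subunits of eIF3 were called lower in KO1 and in no other table. In KO1 13 of 14 subunit rows were lower, against 19.9% of all genes tested, with a median log2 fold change of -0.27 over the subunit rows. In CBFB KO and KO2 no subunit was called, with medians of 0.00 and -0.01. With the length and GC trend subtracted, 7 of 14 rows were lower in KO1 (16.9% of all genes tested), and EIF3K and EIF3I were among those that lost their call. EIF3K, a peripheral subunit, went from 4545 to 3353 normalized counts in KO1, 73.8% of WT (62.3 to 87.3%, adjusted p = 0.00174). EIF3E went from 12235 to 9244 normalized counts, 75.6% of WT (67.6 to 84.4%, adjusted p = 6.22e-06). EIF3I was at 79.5%, EIF3F at 79.6% and EIF3M at 79.7% of WT in KO1. The other subunits called there lay between 82.2% (EIF3G) and 85.7% (EIF3J) of WT. EIF3A, the large scaffold of the complex, was the exception in KO1 at 109% (91.8 to 129%) of WT. In CBFB KO the subunits ran from 80.9% (EIF3E) to 113% (EIF3F), and in KO2 from 75.8% (EIF3J, 58.4 to 98.3%, adjusted p = 0.167) to 115% (EIF3G). In CBFB KO, EIF3E was at 80.9% (68.5 to 95.5%) of WT with an unadjusted p of 0.012 and an adjusted p of 0.0600, short of the threshold. EIF3C and EIF3CL, near-identical copies, had means of 32828.8 and 32828.9 normalized counts in the CBFB table and log2 fold changes that matched to 2 decimals in each table, so they may hold the same reads. Counted once, 29 members were called in KO1.

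CBFB KO shares no samples with the RUNX1 clones, so their log2 fold changes could be compared by a normal test (two-sided, adjusted over all genes). Between CBFB KO and KO1, 5 of 52 members differed, and the share over all genes was 9.84%. They were EIF3I, EIF3F, EIF5A, EIF4EBP1 and EIF3K, each with a higher log2 fold change in CBFB KO than in KO1. In CBFB KO all 5 lay above WT, and of them EIF4EBP1 alone was called there. With the length and GC trend subtracted, EIF3F was the only one of the 5 that still passed, and with median transcript lengths none did. The difference was 0.45 for EIF3I (SE 0.11, adjusted p = 0.00302), 0.50 for EIF3F (SE 0.13, adjusted p = 0.00304) and 0.47 for EIF3K (SE 0.16, adjusted p = 0.0449). For the other subunits the adjusted difference did not pass, EIF3H being nearest with 0.31 (95% interval 0.09 to 0.52, adjusted p = 0.0574). Between CBFB KO and KO2, none of 50 members differed (2.9% of all genes did), none had an unadjusted p under 0.05, and the smallest adjusted p was 0.642.

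Of the 5 factors that deliver the initiator tRNA, 3 were lower in KO1, 1 in KO2 and 0 in CBFB KO. Of the 6 members grouped here under start codon selection and subunit joining, 1 was lower in each table. Over all genes tested, lower calls covered 19.9% (KO1), 6.08% (KO2) and 7.97% (CBFB KO). The eIF2 subunits are EIF2S1, EIF2S2 and EIF2S3. Of these, EIF2S1, which carries the phosphorylated site, was lower in KO1 at 89.6% (81.7 to 98.1%) of WT (adjusted p = 0.0465), and EIF2S3 was at 109% (99.3 to 121%), not called. EIF2A, a separate factor that can bring initiator tRNA to some mRNAs, was at 96.0% (86.4 to 107%) of WT in CBFB KO, 84.5% (74.9 to 95.3%, adjusted p = 0.0181) in KO1 and 81.6% (70.7 to 94.3%, adjusted p = 0.0412) in KO2. EIF2D was lower in KO1 at 81.1% of WT (adjusted p = 0.00466). With the length and GC trend described below subtracted, EIF2A lost both calls (adjusted p = 0.606 in KO1 and 0.292 in KO2). EIF2D kept its call in KO1 with that trend (-0.37, adjusted p = 3.99e-04) but lost it with median transcript lengths (-0.19, adjusted p = 0.0938).

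EIF5, which activates the GTPase of eIF2 once the start codon is found, went from 4277 to 3377 normalized counts in KO2, 79.0% of WT (67.1 to 93.0%, adjusted p = 0.0346). It was at 89.2% (81.1 to 98.1%, adjusted p = 0.0464) in KO1 and at 85.8% (74.2 to 99.2%, adjusted p = 0.137) in CBFB KO. EIF1AX went from 7339 to 6329 normalized counts in CBFB KO, 86.2% of WT (77.4 to 96.0%, adjusted p = 0.0385). In KO1 and KO2 it was at 87.3% and 79.3% of WT with unadjusted p-values of 0.028 and 0.024 and adjusted p-values of 0.0677 and 0.122. EIF1, EIF1AD, EIF1B and EIF5B, the factor that joins the subunits, were called in no table. EIF1B-AS1 had a mean near 1 normalized count in each table, with no adjusted p-value for CBFB KO and no call for KO1 or KO2, and EIF3J-AS1 was at 96.5%, 82.4% and 94.4% of WT, also not called.

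Of the exchange factor eIF2B, 4 of 5 subunits were lower in KO1, against 19.9% of all genes tested, weakly expressed ones included. None was called in CBFB KO or KO2. After the length and GC trend described below was subtracted, EIF2B1 and EIF2B3 lost their call in KO1. With median transcript lengths EIF2B4 lost it too (-0.10, adjusted p = 0.317), while EIF2B5 kept it either way. EIF2B5, the catalytic subunit, was at 83.1% (76.5 to 90.3%) of WT in KO1 (adjusted p = 6.92e-05) and EIF2B3 at 80.8%. EIF2B2 was at 93.6% (82.5 to 106%) and not called. In CBFB KO the values of the 5 subunits ran from -0.25 (EIF2B3) to 0.16 (EIF2B2) on the log2 scale.

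Among the kinases of eIF2, only EIF2AK3, the sensor of stress in the endoplasmic reticulum also called PERK, was called. It went from 193 to 311 normalized counts in KO1, 161% of WT (135 to 193%), a log2 change of 0.69 (SE 0.13, adjusted p = 1.47e-06) and the largest of any member in any table. In CBFB KO it went from 323 to 393 normalized counts, 122% (100 to 147%, adjusted p = 0.151), and in KO2 from 185 to 228, 123% (77.0 to 197%, adjusted p = 0.702). All 3 values were above WT, but those in CBFB KO and KO2 did not pass. The kinase of viral RNA, EIF2AK2, was at 92.4% in CBFB KO and 112% in KO1, and neither it nor EIF2AK1 and EIF2AK4 was called.

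Of the cap-binding members, EIF4E3 was the only one called as deposited. EIF4E, the main cap-binding protein, was at 88.3% (78.8 to 99.0%) of WT in CBFB KO and at 88.4% (79.0 to 98.9%) in KO1, with adjusted p-values of 0.124 and 0.0735. EIF4E3 was higher in KO1, from 209 to 267 normalized counts, 128% of WT (110 to 148%, adjusted p = 0.00408). Its levels in CBFB KO and KO2 were 124% (100 to 153%) and 128% (99.6 to 164%), with adjusted p-values of 0.153 and 0.218. The scaffold EIF4G3 was higher in KO1 at 123% (107 to 142%, adjusted p = 0.0124), and EIF4G1 and EIF4G2 were called in no table.

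EIF4EBP1, the repressor released from eIF4E by mTOR signals, was the member called in opposite directions. It rose from 1640 to 1990 normalized counts in CBFB KO, 121% of WT (105 to 140%, adjusted p = 0.0461), and fell from 2034 to 1681 in KO1, 82.6% (70.7 to 96.6%, adjusted p = 0.0436). The difference was 0.55 on the log2 scale (SE 0.16, adjusted p = 0.00991). Both calls were close to the threshold, and both were lost when the length and GC trend was subtracted, with adjusted p-values of 0.350 and 0.595. EIF4EBP3 was the lowest member in KO1, from 183 to 132 normalized counts, 72.1% of WT (60.7 to 85.8%, adjusted p = 9.77e-04). EIF4EBP3 also lies within the read-through gene ANKHD1-EIF4EBP3, whose mean was 2018 normalized counts and whose log2 fold change was 0.21 (not called) in KO1, so its own reads are uncertain. EIF4EBP2 and EIF4ENIF1, a protein that carries eIF4E into the nucleus, were called in no table.

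EIF5A was lower in KO1, from 29120 to 22598 normalized counts, 77.6% of WT (68.3 to 88.2%, adjusted p = 4.88e-04), and stood at 105% (96.3 to 115%) in CBFB KO and 93.5% (68.7 to 127%) in KO2. Its difference between CBFB KO and KO1 was 0.44 (SE 0.11, adjusted p = 0.00418). EIF5AL1, a near copy of EIF5A, was at 75.6% (62.6 to 91.4%) of WT in KO1 (adjusted p = 0.0124) on a mean of 273 normalized counts and may hold reads of EIF5A. EIF6, which keeps the ribosomal subunits apart, was at 86.2% in KO1 with an unadjusted p of 0.041 and an adjusted p of 0.0935.

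Fold changes in KO1 depended on transcript length across the whole genome. Over the expressed genes of known length (10806 for CBFB KO, 10614 for KO1 and 10143 for KO2), Spearman's rho between the log2 fold change and the length of the longest annotated transcript was 0.36 in KO1, -0.09 for CBFB KO and -0.08 for KO2. It is a correlation across genes of the same libraries, which are not independent replicates. The median log2 fold change in KO1 ran from -0.28 in the shortest decile of genes to 0.17 in the longest. Of the shortest decile, 52.1% of genes were called lower in KO1, and of the longest decile 9.42%. Over the members rho was 0.59 in KO1 and -0.05 in CBFB KO (52 members each) and -0.15 in KO2 (50 members). GC content followed the fold changes in the other tables, with rho over all expressed genes of 0.26 (CBFB KO), -0.03 (KO1) and 0.34 (KO2).

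The members in the shortest decile were EIF1B, EIF3G, EIF3I, EIF3K, EIF4EBP1, EIF4EBP3, EIF5A and EIF6, whose median log2 fold change in KO1 was -0.33, beside -0.28 for all genes of that decile, and 6 of the 8 were called lower. In the sixth decile, with lengths from 3723 to 4341 nucleotides, all genes had a median of 0.01 and 23.4% were called lower. There the 7 members EIF2B2, EIF2B4, EIF3B, EIF3C, EIF3H, EIF4B and EIF5AL1 had a median of -0.26, and 6 were lower. In the ninth decile, EIF3A, EIF3F, EIF4G2, EIF4G3 and EIF4EBP2 had a median of 0.12 beside 0.11 for all genes. The members EIF4EBP3, EIF3K and EIF5A thus lay where short genes in general were lower. The members of the sixth decile had a median below that of genes with longest transcripts of similar length. The median coding transcript was shorter for EIF4B (1985 nucleotides), EIF2B4 (1762.5) and EIF3H (2041). With a trend on median lengths and GC content subtracted, EIF3B, EIF3C, EIF4B (-0.21, adjusted p = 0.00509) and EIF5AL1 stayed lower in KO1. EIF2B4 did not (-0.10, adjusted p = 0.317).

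**Figure D3:**
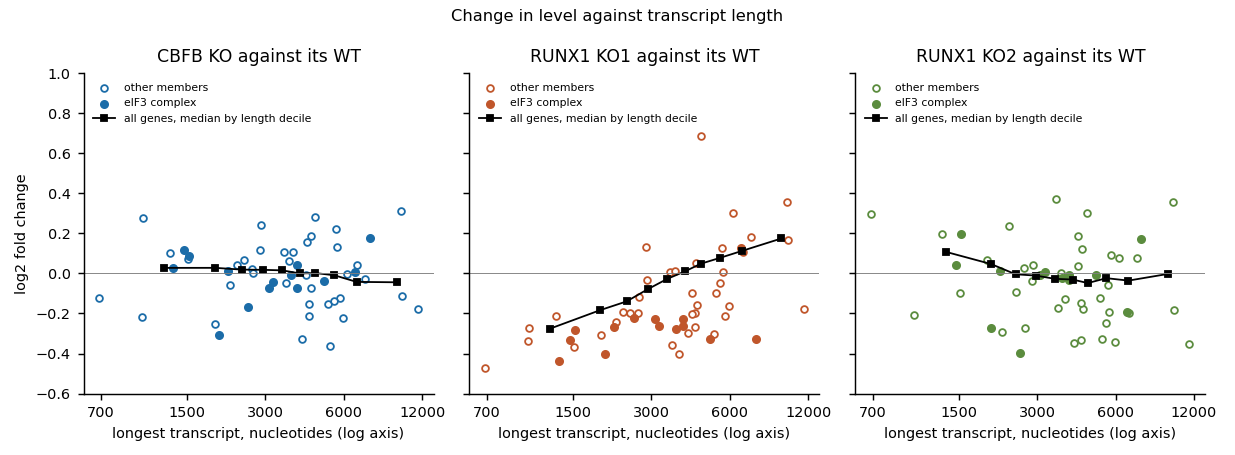
Log2 fold change (y axis) against the length of the longest annotated transcript (x axis, log scale) for the members in each table, with eIF3 subunits filled; the line joins the medians of all genes by decile of length. In RUNX1 KO1 the line climbs from -0.28 to 0.17, and most eIF3 subunits lie below it; in the other tables the line stays between -0.05 and 0.11.

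Subtracting a smooth trend on length and GC content, fitted over all expressed genes, left 19 of 52 members called in KO1, 17 lower and 2 higher, with a median log2 fold change of -0.12. Over all genes tested, weakly expressed ones included, 16.9% were lower after the same step. Of the 30 deposited calls 16 remained, 14 were lost and 3 members (EIF1AX, EIF2S3 and EIF4E) were gained. None of the gained calls held with median transcript lengths, where EIF4E was at 0.02 (adjusted p = 0.876), EIF2S3 at 0.12 (adjusted p = 0.180) and EIF1AX at -0.21 (adjusted p = 0.0512). For EIF4E the longest transcript has 11523 nucleotides and the median 1114.5. Lower calls that remained included EIF4B (-0.32, adjusted p = 8.03e-06), EIF2B5 (-0.32, adjusted p = 1.59e-06), EIF4A3 (-0.33, adjusted p = 1.95e-04), EIF3M (-0.39, adjusted p = 6.66e-04) and EIF3E (-0.21, adjusted p = 0.0324). EIF2AK3 kept its rise at 0.64 (adjusted p = 8.25e-06). Calls that were lost included EIF3K (-0.22, adjusted p = 0.152), EIF5A (-0.19, adjusted p = 0.108), EIF3I (-0.12, adjusted p = 0.333), EIF4EBP3, EIF4E3 and EIF4G3. EIF3CL lost its call (-0.19, adjusted p = 0.0683) while EIF3C kept it (-0.24, adjusted p = 0.0189), on nearly equal counts but different annotated lengths of 3085 and 3957 nucleotides.

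Of the eIF3 subunits, 7 of 14 were lower in KO1 after the trend was subtracted (16.9% of all genes tested), and their median was -0.21. The longest annotated transcript of EIF3F has 7540 nucleotides but the median over its annotated coding transcripts is 1254, and the call depends on which is used. With the longest transcript the log2 fold change was -0.45 (adjusted p = 1.49e-05), and with the median length it was -0.15 (adjusted p = 0.229). With the median lengths, 17 members were called in KO1. The 5 differences between CBFB KO and KO1 became 2 with the longest transcripts, EIF3F and EIF3H, and 0 with the median lengths.

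**Figure D4:**
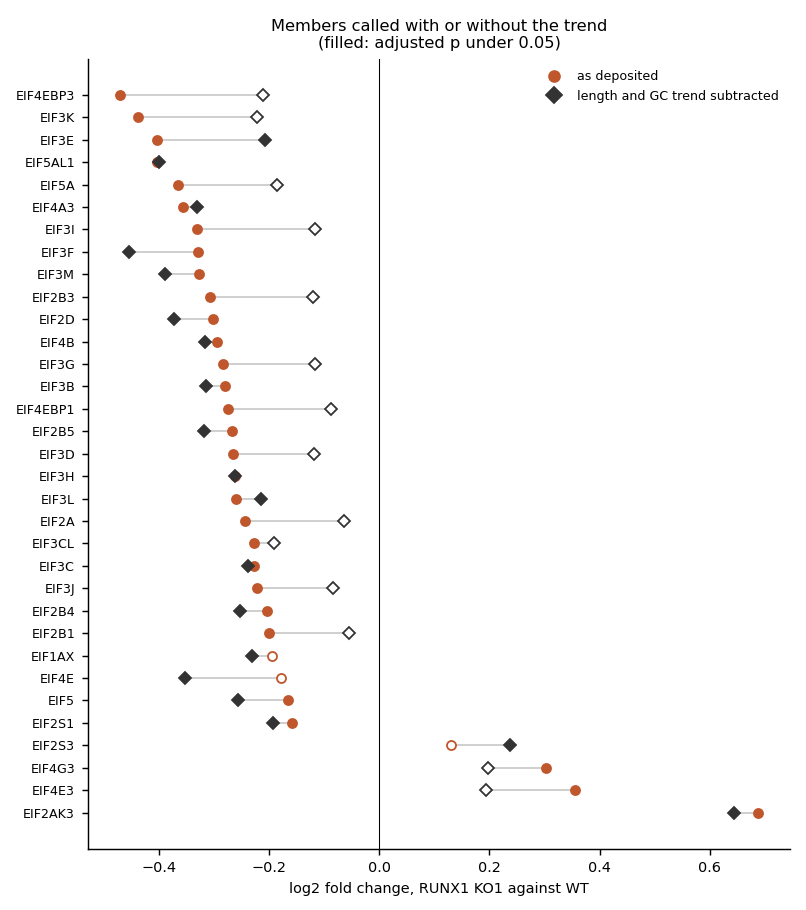
Log2 fold change in RUNX1 KO1 (x axis) as deposited (circles) and after the trend on transcript length and GC content was subtracted (diamonds), for the 33 members called in either; filled symbols had an adjusted p-value under 0.05. Short genes such as EIF4EBP3, EIF3K, EIF3I and EIF5A moved toward 0 and lost their call, while EIF4B, EIF4A3, EIF3H, EIF2B5 and EIF2AK3 stayed in place.

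The KO2 table lacked 2 members that the other tables held, EIF3K and EIF4EBP1. Neither was weakly expressed, with means of 3949 and 1857 normalized counts in the KO1 table. Both are short, at 1327 and 1020 nucleotides, and EIF4EBP1 is rich in GC (65.5%, EIF3K 52.8%). They belong to the 354 of 10699 expressed genes (3.31%) in the KO1 table that were absent from the KO2 table. These genes had a median length of 1452 nucleotides and a median GC content of 58.3%, against 3810 nucleotides and 47.9% for the genes listed. The absent share was 18.3% in the shortest decile of genes and 0.282% in the longest. In the other direction, 0 of 10224 expressed genes in the KO2 table were absent from the KO1 table. The median SE in KO2 was 0.28 in the shortest decile and 0.18 in the fifth, while in KO1 it was 0.11 and 0.10. In that shortest decile, EIF3G (SE 0.32) and EIF6 (SE 0.30) had wide intervals in KO2, 73.9 to 178% and 76.4 to 172% of WT. Among the members as a set, the median SE in KO2 did not follow length. It was 0.22 for the 22 shorter and 0.22 for the 28 longer members, split at 3722.5 nucleotides. What removed these genes from the table was not tested.

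**Figure D5:**
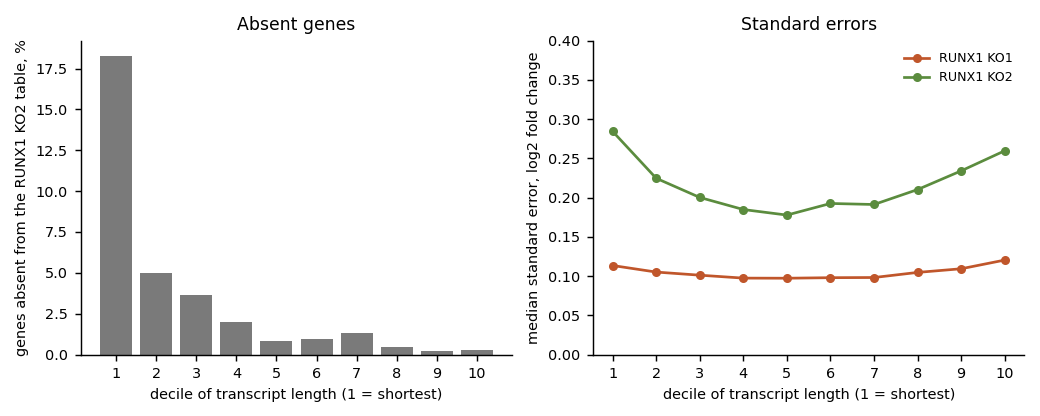
Left, share of expressed genes of the RUNX1 KO1 table that are absent from the RUNX1 KO2 table (y axis) by decile of transcript length (x axis); right, median SE of the log2 fold change in both tables for the same deciles. The absent share falls from 18.3% in the shortest decile to 0.282% in the longest, and the SE in KO2 is highest in the shortest decile at 0.28.

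Subtracting length and GC content together left KO2 with no called member, and EIF4B (adjusted p = 0.0558), EIF5 (-0.25, adjusted p = 0.175) and EIF2A (-0.19, adjusted p = 0.292) lay short of the threshold. With the trend on length alone all 3 kept their call (EIF4B 0.0234, EIF5 0.0438 and EIF2A 0.0102, adjusted p), and with median lengths and GC content EIF4B did (adjusted p = 0.0385). In CBFB KO 3 members were called after the same step: EIF4A2 (-0.30, adjusted p = 0.0268) and EIF4B (-0.33, adjusted p = 0.0269) were lower, and EIF3F was higher (0.24, adjusted p = 0.0296). EIF1AX lost its call there (-0.14, adjusted p = 0.245).

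Grouped by their starts, the members with a pyrimidine tract were called lower in 2 of 9 cases in CBFB KO (EIF4A2 and EIF4B), in 7 of 9 in KO1 and in 2 of 8 in KO2 (EIF2A and EIF4B). The 34 members with an entry and no such start gave 1, 14 and 1 lower calls. Their median log2 fold changes were -0.04, -0.30 and -0.08 with the tract, and -0.01, -0.19 and -0.04 without it. Lower calls covered 7.97% (CBFB KO), 19.9% (KO1) and 6.08% (KO2) of all genes tested. With the length and GC trend subtracted, EIF2A, EIF3D and EIF3K lost their KO1 call among members with the tract. Among those without the tract, EIF2B1, EIF2B3, EIF3I, EIF3J, EIF4EBP3 and EIF5A lost it. The 9 members with no entry are in neither group. Of these, EIF3CL, EIF3E, EIF3G, EIF3H, EIF3L and EIF4EBP1 were lower in KO1. The differences between the groups were not tested.

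Translation genes outside the EIF names were described for comparison. Over all genes tested, 19.7% (CBFB KO), 39.5% (KO1) and 14.8% (KO2) were called in either direction. Of 26 cofactors and regulators of initiation, 2 were higher and 2 lower in CBFB KO, 1 higher and 4 lower in KO1, and 2 lower in KO2. PAIP1, which links the poly(A)-binding protein to eIF4A, was higher by 0.83 on the log2 scale in CBFB KO (adjusted p = 2.47e-16), more than any EIF member there, and CYFIP1 was higher by 0.24. IMPACT (-0.31) and the ribosome recycling factor ABCE1 (-0.28) were lower. In KO1, CYFIP1 was higher (0.34), and BZW2, a mimic of eIF5, was lower (-0.51) with PAIP2B (-0.40). BZW2 was also lower in KO2 (-0.44, adjusted p = 2.83e-04), as was the poly(A)-binding protein PABPC4 (-0.40, adjusted p = 0.0425). Of 10 elongation and termination factors, 2 were lower in CBFB KO, 5 were lower and 1 higher in KO1, and 1 was lower and 1 higher in KO2. EEF1A2, a form of the elongation factor eEF1A found mainly in muscle and nerve, had log2 fold changes of -0.84 (CBFB KO), 1.66 (KO1) and 2.04 (KO2), all called. EEF2K was lower in CBFB KO (-0.26), EEF1E1 (-0.39) and EEF1D (-0.39) were lower in KO1, and EEF1E1 was lower in KO2 (-0.41). All these calls are as deposited. Once the length and GC trend was subtracted, EEF1E1 fell short of the threshold for both clones, at -0.12 (KO1, adjusted p = 0.366) and -0.30 (KO2, adjusted p = 0.118). IMPACT (CBFB KO, -0.25, adjusted p = 0.0630) and PABPC4 (KO2, -0.33, adjusted p = 0.132) also fell short. The other calls named here stayed past the threshold.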

How the data were processed

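The 18 samples were grouped by their labels. The submitters' processing notes name Trimmomatic, STAR, DESeq2 and the build hg19, without versions or order. The labels give a TruSeq mRNA kit but the methods give depletion of ribosomal RNA, a discrepancy left unresolved. Values came from 3 tables in which the authors had compared each knockout with its WT, and which hold, beside a mean, the authors' own comparison columns only. Those deposited fold changes, SEs and p-values are the basis of the results, since no counts per sample were analysed here. The deposited mean of normalized counts was treated as a signal. The deposited log2 fold change is shrunk toward 0. The deposited SE and the test score (fold change over SE) were used as given. The deposited p-values are two-sided and adjusted by Benjamini and Hochberg, and were recomputed only in the alternatives. The tables hold 0 columns of values per sample, and read totals per sample are not known. The means sum to 20214423 (CBFB), 18050386 (KO1) and 16467400 (KO2) normalized counts. Tested were 14975, 16394 and 15636 genes.

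Knockout and WT levels were derived from the mean and fold change, assuming equal group sizes, and are approximate. RUNX1 WT levels differ between its tables because each was normalized apart (median difference -0.08, log2). The longest transcript in GENCODE release 29 gave each gene's length and GC content. Trends were fitted by robust spline regression (statsmodels 0.14.6) over genes with a mean of at least 100, and tested on simulated data. All 55 members matched RefSeq by ID, and coordinates are those of GRCh38.p14 for the printed sequences only. Of the RefSeq protein-coding genes that match the name rule, EIF1AY, EIF2S3B and EIF4A1 are not analysed here under their own names. The members and gene lists were chosen with earlier results of these data known. Named were EIF4B, called members past 1.5-fold, up to 5 of the highest and of the lowest called members per table, those that differed between knockouts and those absent or untested. Other members are named within their role to complete it, and were chosen after their values were seen. Separate cultures are not stated for the repeats, so p-values may measure technical spread.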

Additional observations from a re-analysis of the deposited data

Results flagged for a closer look

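In 5 of 52 members the change differed between CBFB KO and RUNX1 KO1 by the test of the difference itself (log2 fold change in CBFB KO minus that in KO1). The share over all genes was 9.84%, so the members did not stand out by their number. The difference was 0.55 for EIF4EBP1, 0.50 for EIF3F, 0.47 for EIF3K, 0.45 for EIF3I and 0.44 for EIF5A. The log2 fold changes in CBFB KO were 0.28, 0.18, 0.03, 0.12 and 0.07, and those in KO1 were -0.28, -0.33, -0.44, -0.33 and -0.37. Of the 5, EIF3F passed the threshold when the trend on the longest transcript length and GC content was subtracted (0.70), and none passed with median transcript lengths.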

How the results depend on the processing

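No paired analysis was possible because the tables hold no value per sample, and for the same reason no replicate could be left out. Requiring a fold change of at least 1.5 left 0 (CBFB KO), 1 (KO1) and 0 (KO2) called members, and at least 2 left 0 in each. Subtracting the length and GC trend gave 19 in KO1 and 0 in KO2, and 2 differences between CBFB KO and KO1. The same with median transcript lengths, an alternative chosen after seeing the data, gave 17 in KO1, 1 in KO2 and 0 differences. In CBFB KO the count stayed between 3 and 5 under the trends, centring and both filters on means, with 5 lower and 0 higher under the trend on length alone and 3 lower and 0 higher without the filter, against 3 and 1 as deposited. Of 276 values of the 16 named members with a test under the 3 trends, centring and both filters, 233 kept their side of the threshold, 38 lost the call, 5 gained it and 0 reversed. The 233 include values that were not called as deposited and stayed so. Calls were lost mostly under the trends: 13 with length and GC content, 12 with median transcript lengths and GC content, and 9 with length alone. The cause was not tested.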
